A study of Mus musculus with 8 samples.

Results

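The genes described here are the mouse replication-dependent histone genes. They were chosen by name: genes whose probes map to the current symbols H1f1 to H1f5, or to H2ac, H2bc, H3c or H4c followed by a number. The RefSeq table holds 63 such genes, and 44 of them, among 45586 genes in all, had a probe on the array. They were 5 H1, 13 H2A, 11 H2B, 7 H3 and 8 H4 genes, of which 37 lie in the cluster on chromosome 13 and 7 in that on chromosome 3. No measured value entered the rule, which was chosen with earlier results of these data known.

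The samples were lineage-negative, CD49f-positive cells sorted from mammary tumours of bitransgenic mice, which carry an s-SHIP promoter-GFP reporter together with the C3(1)-Tag transgene. The reporter marks cells in which the internal promoter of Inpp5d, which drives the stem cell form of the SHIP1 phosphatase, is active. The Tag transgene, carried by both sorted populations, encodes SV40 large T antigen, a viral protein that inactivates p53 and the retinoblastoma protein. The design compares GFP-positive with GFP-negative cells, with 4 arrays per population, and each population has an array numbered 566, 567, 573 and 631 in its title. A number is taken to mark a tumour. The labels give neither age nor strain, and do not say that each number was a separate animal, so the spread behind each p-value is that of these samples and may be technical.

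Replication-dependent histone genes supply the H1 linker and the H2A, H2B, H3 and H4 core proteins that package new DNA. Their transcription rises as cells enter S phase, through NPAT at the histone locus body. Their mRNAs have no introns and end in a stem-loop bound by SLBP in place of a poly(A) tail, and they are degraded when DNA synthesis stops. A few members, H2bc4 and H2bc21 among them, can also give polyadenylated mRNA. The labels state that total RNA was labelled by the manufacturer's instructions, without saying how it was primed.

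RefSeq promoter windows, of assembly GRCm38.p6 and from 250 bases before to 50 after the start, were available for 39 of the 44 genes as 40 windows. CCAAT, searched on both strands, was found in 87.5% of these windows against 37.4% of all 32851 windows in the table. It occurred at 2 or more places in 75% of them against 11.7%. TATAAA, also on both strands, was in 60% against 13.6%, and the octamer ATTTGCAT in 22.5% against 1.74%; no matches of different motifs overlapped. All 5 H1, 13 H2A, 10 H2B and 5 H3 windows held CCAAT, and 2 of 7 H4 windows did. The octamer was in 5 of 10 H2B windows and 4 of 13 H2A windows, and in 0 windows of H1, H3 and H4. Some windows of neighbouring genes on opposite strands overlap, so the same match can count for both genes. These matches describe letters, not binding.

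The 150 bases before the start of 5 genes are shown as examples of the arrangements of these motifs, with the octamer, the TATAAA box and CCAAT in capitals, each read 5′ to 3′ on the strand of its gene. A CCAAT on the opposite strand appears as ATTGG. They lie at chr13:23622559-23622708 (minus strand, H1f4), chr13:21753926-21754075 (plus, H2bc15), chr3:96269550-96269699 (plus, H2bc18), chr13:23745522-23745671 (minus, H3c3) and chr13:21750554-21750703 (minus, H4c12).
H1f4: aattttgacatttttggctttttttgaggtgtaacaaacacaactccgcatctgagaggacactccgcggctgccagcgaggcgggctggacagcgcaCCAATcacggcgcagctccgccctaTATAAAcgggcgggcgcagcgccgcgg
H2bc15: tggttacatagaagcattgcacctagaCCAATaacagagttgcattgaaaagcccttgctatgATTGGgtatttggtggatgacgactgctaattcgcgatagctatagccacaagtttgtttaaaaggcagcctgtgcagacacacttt
H2bc18: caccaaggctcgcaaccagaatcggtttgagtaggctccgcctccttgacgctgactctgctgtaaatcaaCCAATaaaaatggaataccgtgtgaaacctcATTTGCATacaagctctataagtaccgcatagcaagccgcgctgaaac
H3c3: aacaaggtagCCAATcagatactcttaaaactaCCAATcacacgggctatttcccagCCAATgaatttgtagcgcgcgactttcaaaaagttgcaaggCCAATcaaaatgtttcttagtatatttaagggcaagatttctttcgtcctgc
H4c12: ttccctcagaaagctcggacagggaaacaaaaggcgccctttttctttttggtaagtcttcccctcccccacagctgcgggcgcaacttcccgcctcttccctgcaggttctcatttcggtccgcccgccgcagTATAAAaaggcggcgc
The H1f4 window carries CCAAT and then TATAAA, H2bc18 carries CCAAT and then the octamer, H3c3 carries CCAAT 4 times, and H4c12 carries TATAAA without CCAAT. Some of these motifs were shared between types: CCAAT was at 2 or more places in all 13 H2A, 10 H2B and 5 H3 windows. TATAAA was in 8 of 13 H2A and 5 of 7 H4 windows. The octamer was found only in H2A and H2B windows, and windows without CCAAT only in H4. H2A and H2B genes often start back to back. Among the histone genes with a promoter window, 9 such pairs start 164 to 281 bases apart. H2bc4 and H2bc21 had no window, so pairs that hold them could not be found. H2bc15 shares its window with H2ac15, whose start lies 164 bases away on the other strand.

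All levels below are log2 of the processed intensity relative to the 75th percentile of the array, so that 0 is that percentile, and levels of different probes are not set against each other. The GFP-positive array of tumour 573 stood apart, with 34.1% of gene spots detected against 53.5% to 58.5% on the other arrays. A spot counts as detected where the scanner software marks it well above background; the lowest such signal was 142 intensity units there and 13.4 to 23.5 elsewhere. The 4 GFP-positive arrays lay in 1 column of the slide and the 4 GFP-negative arrays in the other, so the column of the slide and the sorted population cannot be told apart. The markers of mammary epithelium were above background throughout, 6 of 6 on 7 arrays and 5 of 6 on that array. Of the 44 histone genes, 41 were tested, because all 4 arrays of one population or of both detected them, and 37 were detected on all 8 arrays. H2ac7, H2bc22 and H2bc23 were too dim.

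Histone genes varied more between tumours than between populations. In the median histone gene the tumour accounted for 82.2% of the sum of squares and the population for 0.455%; over all 20265 genes tested the medians were 76.8% and 3.14%. The tumour has 3 degrees of freedom and the population 1. The spread from the lowest to the highest tumour mean had a median of 1.06, against 0.82 over all genes. Of the 41 genes, 15 passed limma's F-test of the tumour number at an adjusted p under 0.05, beside 28.8% of all genes tested. In this fit the count of calls was near that share, and its place beside the share changed with the scaling. Those 15 were 4 of 5 H1 genes, 0 of 12 H2A genes, 7 of 9 H2B genes, 3 of 7 H3 genes and 1 of 8 H4 genes. The count of calls was 4 after median scaling, beside 39.6% of all genes. With the percentile taken over probes detected on all arrays it was 28, beside 29.9%. It was 9, 3 and 8 without tumours 567, 573 and 631, beside 13.8%, 20.1% and 17.6%. It was 10 without the GFP-positive array of tumour 631 and between 1 and 6 without each of the other arrays.

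The direction was shared. Tumour 573 had the highest mean of the 4 tumours in 39 of 41 histone genes, beside 34.8% of all genes. In 32 of 41 both arrays of tumour 573 lay above all 6 other arrays, beside 15% of all genes. By type these were 5 of 5 H1, 11 of 12 H2A, 5 of 9 H2B, 7 of 7 H3 and 4 of 8 H4 genes. In the median histone gene tumour 573 exceeded the mean of the other tumours by 0.82, which is 1.77-fold, and the median over all genes was 0.09. Because tumour 573 was singled out from its values, this is a description.

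**Figure D1:**
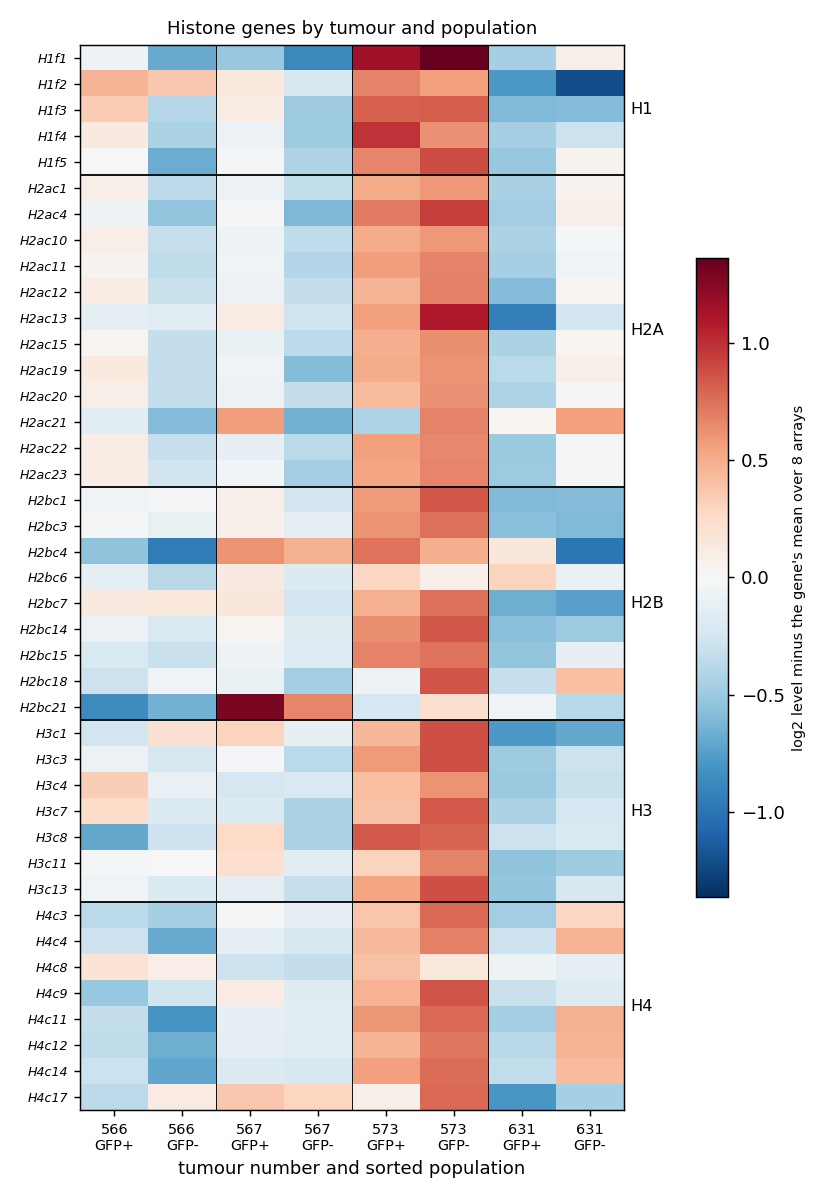
Log2 level of each of the 41 tested histone genes on each array, minus that gene's mean over the 8 arrays, with arrays ordered by tumour and population and genes by histone type. Both columns of tumour 573 are red in nearly every row, and H2bc21 is highest in tumour 567.

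The size of this difference depended on the scaling. Median scaling moved the median of all genes in tumour 573 to -0.44 and that of the histones to 0.30. Relative to all genes the difference was 0.74 under both scalings, which was fixed in advance, because they differ by a constant per array. Settings that can change this relative value gave 0.60 after normexp, 0.88 after quantile normalization and -0.23 with no filter on dim probes. After median scaling tumour 573 was highest in 29 of 41 histone genes, beside 10.1% of all genes. After quantile normalization the histone median was 0.81 against -0.08 over all genes, with 36 of 41 highest in tumour 573. It was 0.91 without the GFP-positive array of tumour 573 and 0.70 without its GFP-negative array, with 38 and 37 of 41 highest there. With no filter on dim probes the median over all genes in tumour 573 was 1.06, above the 0.82 of the histones.

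**Figure D2:**
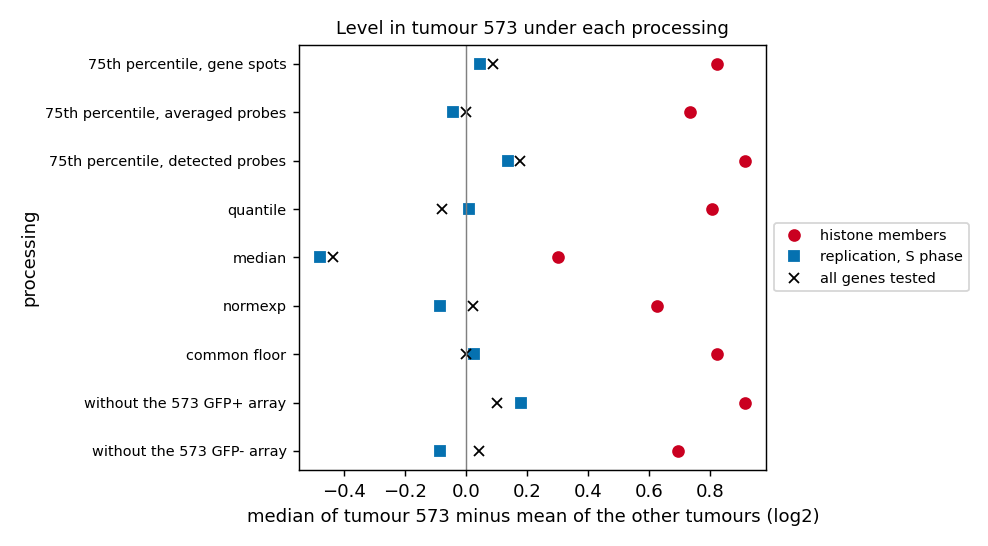
Median over genes of the level in tumour 573 minus the mean of the other tumours (log2), for the histone genes, the DNA replication list and all genes tested, under 9 ways of processing. The histone median was above the other medians each time, from 0.30 after median scaling to 0.91.

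Levels of markers of other cells varied between the tumours too. The summed level of the 6 fibroblast markers was 13.6 and 16.4 on the arrays of tumour 573 and 48.6 to 184 on the others. That of the 12 pericyte markers was 36.0 and 57.0 in tumour 573 and 50.8 to 95.5 elsewhere, and that of 6 epithelial markers 297 and 314 against 353 to 605. That of 8 lymphocyte markers was higher on both arrays of tumour 573, at 3.09 and 1.95 against 1.05 to 1.88, with 2 of the 8 detected on each of the 2 arrays and 1 to 3 on the others. The 10 macrophage markers summed to 5.78 and 11.2 against 7.76 to 14.7, and the 4 erythroid markers to 0.42 and 0.32 against 0.20 to 1.35. All markers of these lists had a probe, and the sums include undetected ones. The lowest detected signal was 142 intensity units on the GFP-positive array of tumour 573 and 13.4 to 23.5 on the others. Sums of mostly undetected markers, as for the lymphocytes, are therefore not comparable on that array. The GFP-positive array of tumour 573 detected 4 of the fibroblast, 2 of the pericyte, 2 of the macrophage and 0 of the erythroid markers. Their part in the histone levels was not tested, and in such bulk samples more cells of a kind and more RNA per cell cannot be told apart.

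Genes that serve histone supply had other values across the tumours. Centred on each gene's mean over the arrays, the median in tumour 573 was 0.62 for the histones and 0.07 over all genes. It was 0.03 for 30 DNA replication and S phase genes, 0.06 for 17 G2 and mitosis genes, -0.07 for 22 genes of histone mRNA synthesis and turnover and -0.03 for 21 histone chaperone and import genes. Tumour 573 was highest in 11 of 30 replication genes and in 5 of 17 mitosis genes. Replacement and other variant histones had a median of 0.33, with 8 of 12 highest in tumour 573. Slbp, the stem-loop binding protein, was between 1.02 and 1.45 on all 8 arrays. The 1.45 was in GFP-negative cells of tumour 573, whose GFP-positive cells read 1.05. Pcna, the sliding clamp of DNA polymerase, read 5.85 and 6.21 in the GFP-positive and GFP-negative cells of tumour 573, inside its range of 5.60 to 6.53 over all arrays. Mki67, a marker of cycling cells, read 4.41 and 4.45 there, inside a range of 3.57 to 4.86. Top2a, of the mitosis list, read 3.94 and 3.98 there, above the 3.48 to 3.90 of the other arrays.

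**Figure D3:**
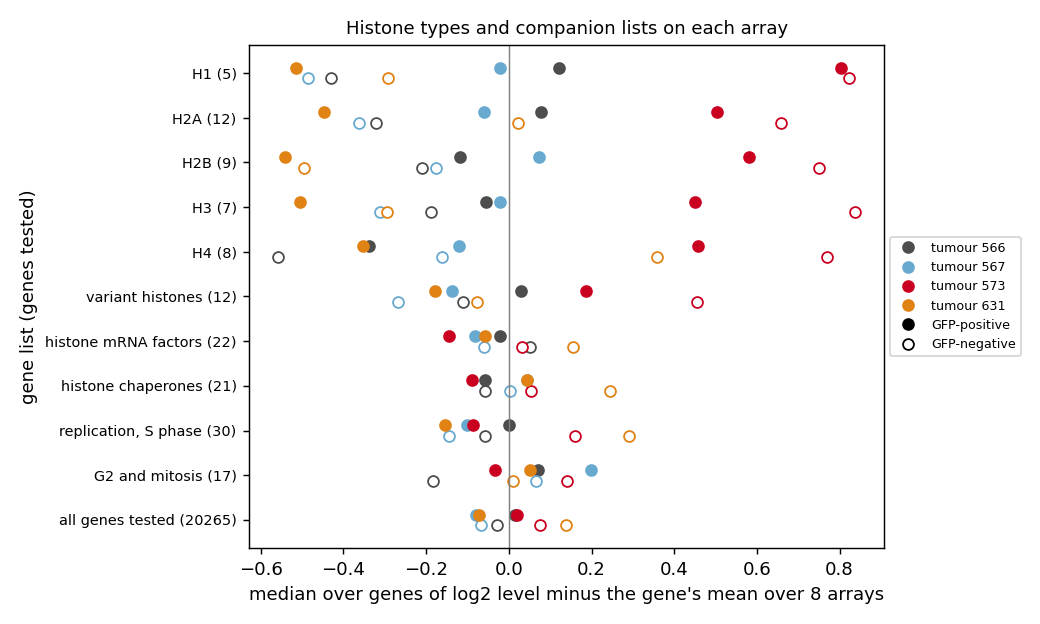
Median over the genes of each list of the log2 level minus the gene's mean over 8 arrays, for each array, with filled points for GFP-positive and open points for GFP-negative cells. The 5 histone types had their 2 highest medians on the arrays of tumour 573, while the replication, mitosis, chaperone and mRNA factor lists lay between -0.18 and 0.29.

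Among the linker histones, H1f1 had the widest spread between tumours. It read 1.31, 0.86, 2.53 and 0.92 in GFP-positive cells of tumours 566, 567, 573 and 631, and 0.68, 0.50, 2.73 and 1.45 in GFP-negative cells. Both arrays of tumour 573 lay above the rest, with a spread of 1.95 between tumour means (limma F-test, adjusted p = 0.0212). H1f2 (Hist1h1c) set tumour 631 apart as well. Its GFP-positive levels were 2.94, 2.62, 3.15 and 1.69 in the same order, and its GFP-negative levels 2.84, 2.26, 3.03 and 1.26. The 2 arrays of tumour 631 were its lowest, and the spread was 1.61 (limma F-test, adjusted p = 0.0110). H1f3 passed the test with a spread of 1.41 and H1f4 with 1.18 (limma F-test, adjusted p = 0.0357 and 0.0329), and H1f5 did not pass (adjusted p = 0.0981).

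The H2A genes varied almost in parallel. For the 11 that were above background on every array, the centred levels of the different genes spanned 0.22 to 0.57 on any array. In H1 that span reached 1.29, in H2B 1.40, in H3 1.03 and in H4 0.94. H2A genes have nearly identical coding sequences and the probe sequences were not used here, so a probe may read several copies, and their 11 values cannot be counted as separate measurements. The same holds, as far as copies are alike, for H2B, H3 and H4. H2ac13 was the H2A gene with the widest spread. In GFP-positive cells it read 2.89, 3.14, 3.59 and 2.09, and in GFP-negative cells 2.87, 2.75, 4.12 and 2.76. Its highest values were those of tumour 573 (spread 1.42, limma F-test adjusted p = 0.0508). H2ac21, named because tumour 573 was not its highest, and so chosen after its values were seen, was highest in tumour 631 and was not detected in GFP-positive cells of 573.

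The H2B genes varied most among themselves. H2bc3 and H2bc14 each separated tumour 573 at the top and tumour 631 at the bottom. H2bc3 had GFP-positive levels of 3.95, 4.04, 4.59 and 3.40 and GFP-negative levels of 3.87, 3.84, 4.73 and 3.37, so that the arrays of a tumour differed by at most 0.20 (spread 1.27, limma F-test adjusted p = 0.0219). H2bc4 was instead low in tumour 566, at 2.49 and 2.08, and its means in tumours 567 and 573 were 3.58 and 3.65 (limma F-test adjusted p = 0.0304). H2bc21, chosen after its values were seen, was highest in tumour 567. It read -2.68, -0.55, -2.06 and -1.89 in GFP-positive cells and -2.47, -1.16, -1.61 and -2.21 in GFP-negative cells, with a spread of 1.72 (limma F-test adjusted p = 0.0292). Its second probe gave the same order of tumours.

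In H3, 6 of 7 genes were lowest in tumour 631, beside 23.7% of all genes, and 7 of 7 highest in tumour 573. H3c3 read 4.75, 4.81, 5.40 and 4.35 in GFP-positive cells and 4.61, 4.47, 5.71 and 4.53 in GFP-negative cells. The arrays of tumour 573 were its 2 highest, and the spread was 1.12 (limma F-test adjusted p = 0.0402). H3c1 had a spread of 1.41 and H3c13 of 1.08, with adjusted p of 0.0396 and 0.0411 by the limma F-test. In H4, 6 of 8 genes were lowest in tumour 566, beside 20.5% of all genes. H4c12 read 6.76, 6.98, 7.57 and 6.73 in GFP-positive cells and 6.44, 6.96, 7.82 and 7.58 in GFP-negative cells. The GFP-negative array of tumour 631 reached the level of tumour 573 in this gene, and the F-test was not passed (limma, adjusted p = 0.108). H4c9 was the H4 gene that passed, with a spread of 1.06 (limma F-test, adjusted p = 0.0450).

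Between populations, no histone gene passed the test. By limma, 0 of 41 passed at an adjusted p under 0.05, beside 0% of 20265 genes, and 0 of 41 had an unadjusted p under 0.05, beside 0.794% of all genes. Differences, as GFP-positive minus GFP-negative, ran from -0.38 to 0.48 with a median of 0.01, and the median over all genes was -0.06. Of the 41 genes 15 were lower in GFP-positive cells, beside 63.5% of all genes; this count was 28 after median scaling and 30 after normexp, where the histone median turned to -0.04 and -0.06. Standard errors ran from 0.19 to 0.55 with a median of 0.34, in a fit that leaves out the pairing. In that fit changes of that size were not detectable with 4 arrays per population, and larger ones did not pass either. The non-coding RNA Rn7sk, at -1.39 (SE 0.23), had an adjusted p of 0.675 there (limma). Over the alternatives, some of which use the pairing, its smallest adjusted p was 0.0681 (limma). No histone gene had populations that did not overlap, beside 0.834% of all genes. With the tumour number as a random block the median standard error was 0.19 and 1 gene, H2bc6, had an unadjusted p under 0.05 (limma, adjusted p = 0.933); with it as a fixed block 0 had.

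**Figure D4:**
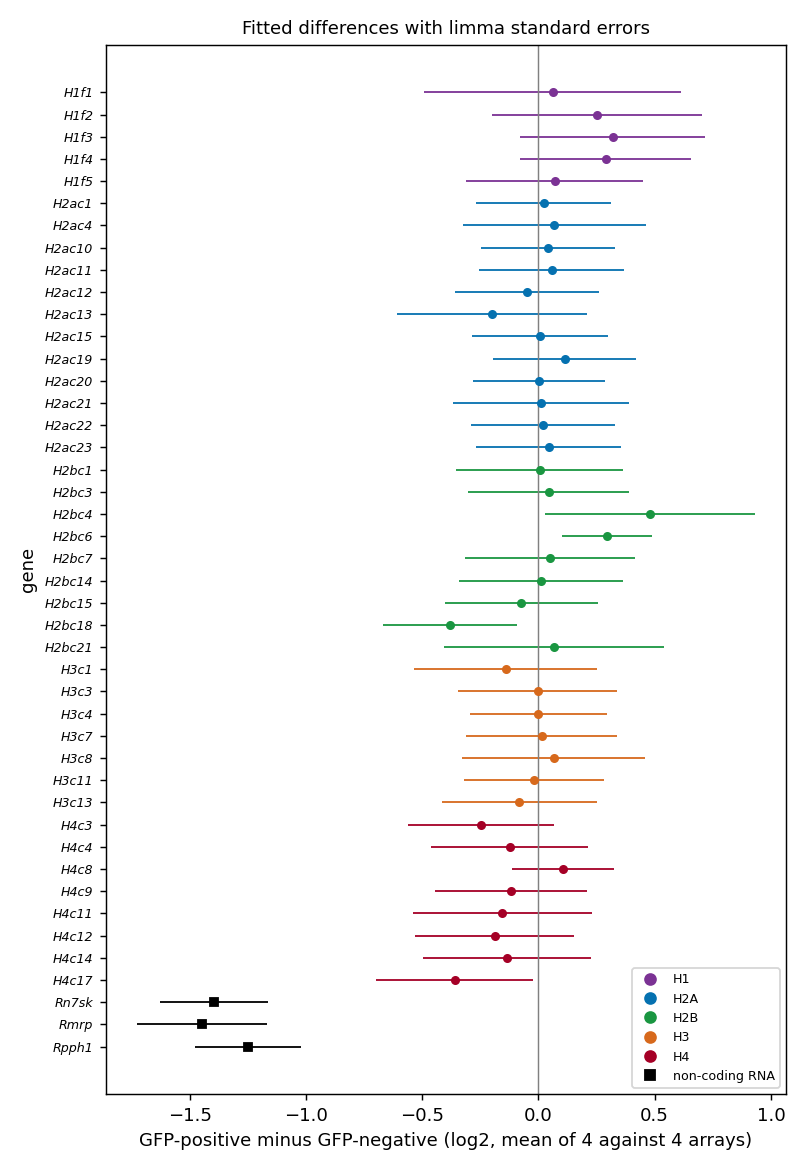
Fitted difference of each tested histone gene between populations (log2, GFP-positive minus GFP-negative, 4 arrays each) with bars of 1 limma standard error, and Rn7sk, Rmrp and Rpph1 as squares. Histone differences lie between -0.38 and 0.48, and the 3 non-coding RNAs lie between -1.45 and -1.25.

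The small mean difference combined opposite differences in different tumours. The median over histone genes was 0.36 in tumour 566 and 0.28 in tumour 567, and it was -0.21 in tumour 573 and -0.41 in tumour 631. The medians over all genes were 0.02, -0.01, -0.09 and -0.20 in the same order. Relative to these, which a constant per array does not change, the histone medians were 0.34, 0.30, -0.11 and -0.20. GFP-positive cells were lower in 9 of 41 histone genes in tumour 566, beside 47.9% of all genes, and in 1 of 41 in tumour 567, beside 51.9%. They were lower in 35 of 41 in tumour 573, beside 61.1%, and in 34 of 41 in tumour 631, beside 69%. Each of these is 1 array against 1, with no test. The median of the mean difference was accordingly -0.15 without the GFP-positive array of tumour 573 and 0.24 without its GFP-negative array.

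**Figure D5:**
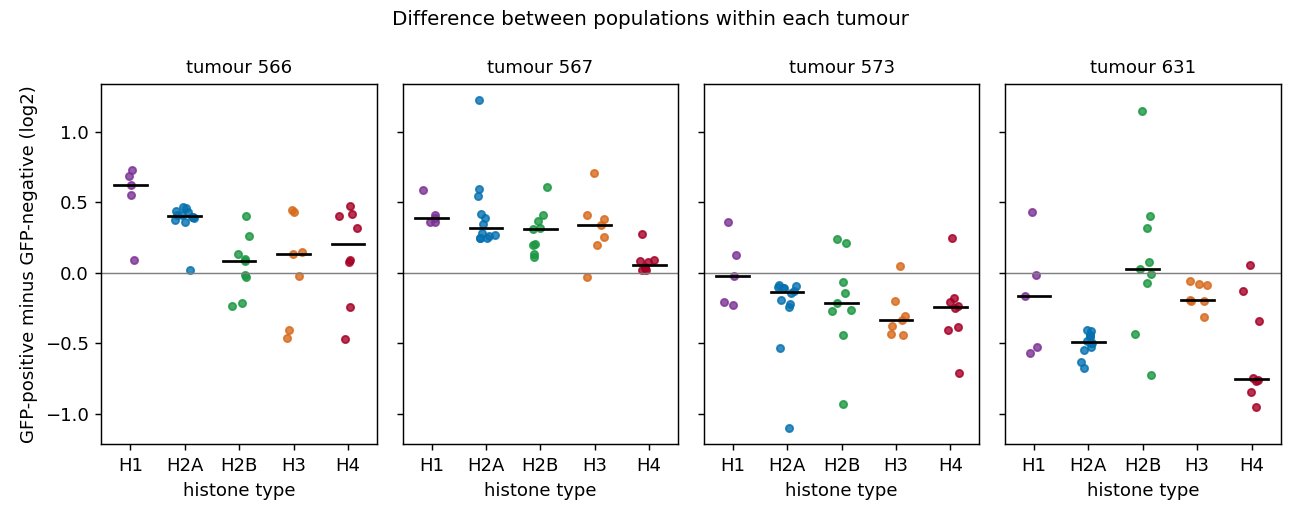
Difference between GFP-positive and GFP-negative cells (log2) within each tumour for each tested histone gene, grouped by type, with a bar at the median. Most points lie above 0 in tumours 566 and 567 and below 0 in tumours 573 and 631, and the H4 median is lowest in tumour 631, at -0.75.

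By type, H1 had medians of 0.63, 0.39, -0.02 and -0.16 in tumours 566, 567, 573 and 631, and H2A 0.40, 0.32, -0.14 and -0.49. H3 had 0.13, 0.34, -0.34 and -0.19. H4 had 0.20, 0.06, -0.24 and -0.75, and H2B, at 0.09, 0.31, -0.21 and 0.03, was the type with no lower median in tumour 631. In that tumour 12 of 41 histone genes were lower in GFP-positive cells by over 0.5, beside 15.9% of all genes, among them 5 of 8 H4, 4 of 12 H2A and 0 of 7 H3 genes. H4c3 differed there by -0.76 and H4c12 by -0.84, against 0.08 and 0.32 in tumour 566. In tumour 566 4 of 41 histone genes were higher by over 0.5, beside 11.7% of all genes. All 4 were among the 5 H1 genes. Over the means, 7 of 8 H4 genes were lower in GFP-positive cells, beside 63.5% of all genes, with a median of -0.14. As H4 probes may read the same copies, these genes cannot be counted as separate measurements. By contrast, 5 of 5 H1 genes were higher with a median of 0.25. Under the other 5 scalings the H4 median was between -0.20 and -0.08, with 7 of 8 lower each time, and the H1 median between 0.20 and 0.32, with 4 or 5 of 5 higher. Single arrays moved both values further. Without the GFP-negative array of tumour 573 the H4 median was 0.08, with 6 of 8 higher; without the other arrays in turn it ran from -0.39, without the GFP-negative array of tumour 566, to -0.04, without that of tumour 631. The H1 median was 0.01 without the GFP-positive array of tumour 573, with 3 of 5 higher, 0.10 and 0.49 without the GFP-negative and GFP-positive arrays of tumour 631, 0.14 without the GFP-positive array of tumour 566 and 0.53 without the GFP-negative array of tumour 573. The medians of H2A, H2B and H3 lay between -0.07 and 0.11 under the scalings and changed sign with them.

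GFP-positive cells had the higher level in all 4 tumours in 4 of 41 histone genes, beside 3.39% of all genes, and the lower level in all 4 in 0 of 41, beside 10.8%. The 4 were H1f2, H2bc4, H2bc6 and H4c8, of which H2bc6 and H4c8 were not detected in GFP-positive cells of tumour 573. H2bc4 (Hist1h2bc) had the largest difference. It read 2.49, 3.65, 3.77 and 3.19 in GFP-positive cells and 2.08, 3.52, 3.53 and 2.05 in GFP-negative cells. The populations overlapped, and the difference of 0.48 (SE 0.45), 1.39-fold, did not pass (limma, adjusted p = 1.00). Its value in tumour 631 was 1.14. H2bc6 read -2.64, -2.41, -2.24 and -2.22 in GFP-positive cells and -2.91, -2.72, -2.45 and -2.62 in GFP-negative cells. Its difference of 0.30 (SE 0.19) was the one with the smallest unadjusted p, 0.160 by limma, and the differences within tumours ran from 0.21 to 0.40. H1f2 differed by 0.25 (SE 0.45).

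The lowest value was that of H2bc18 (Hist2h2bb), in the chromosome 3 cluster. Its levels were 3.56, 3.76, 3.78 and 3.53 in GFP-positive cells and 3.80, 3.39, 4.70 and 4.26 in GFP-negative cells. GFP-positive cells were within a narrow range, with an SD of 0.13 (n = 4), and GFP-negative cells were spread, with an SD of 0.57 (n = 4). The difference was -0.38 (SE 0.29) and lower in 3 of 4 tumours (limma, unadjusted p = 0.221). H4c17 was next, at -0.36 (SE 0.34), also lower in 3 of 4 tumours. Of the 9 pairs found among genes with a promoter window, 2 had both members tested. H2ac15 and H2bc15 differed by 0.01 and -0.07 on average, and in the tumours by 0.36, 0.27, -0.14 and -0.45 for H2ac15 and by 0.10, 0.11, -0.07 and -0.43 for H2bc15. In H2ac1 and H2bc1, histones best known from testis, the differences were 0.02 and 0.01, and in tumour 631 they were -0.49 and -0.005. As the probes of H2ac1 and H2ac15 may read several H2A copies, these values need not be those of the genes named.

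None of the companion lists had a gene that passed limma's test between populations. A gene not detected in GFP-positive cells of tumour 573 could be tested only through its GFP-negative level, so the lists are counted here over the genes detected on all 8 arrays, a choice made after seeing the data; of all 13239 such genes 62.2% were lower in GFP-positive cells, with a median of -0.04. Of 28 replication and S phase genes 26 were lower, with a median of -0.13, none at an unadjusted p under 0.05. In tumour 631 the median over the 30 tested genes of this list was -0.42, and in tumour 566 it was 0.09. Of the mRNA synthesis and turnover genes 15 of 19 were lower, with a median of -0.05, and of the chaperones 17 of 19, with a median of -0.09. Npat, the activator of histone transcription, was not detected in GFP-positive cells of tumour 573; its difference of -0.23 (SE 0.20) lay between -0.34 and -0.02 over the alternatives. Slbp differed by -0.14 (SE 0.18). Replacement and other variant histones had 6 of 10 lower and a median of -0.004, and G2 and mitosis genes 6 of 17 lower and a median of 0.05.

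Of 24 listed non-coding RNAs without a poly(A) tail, a feature they share with most histone mRNAs, 13 were tested. Of these 7 were not detected in GFP-positive cells of tumour 573 and entered through the GFP-negative arrays alone, so no count or median over the 13 is given. All 6 that were detected on every array had a lower mean in GFP-positive cells, with a median of -1.14, 4 of them lower in all 4 tumours, beside 9.43% of genes detected on all 8 arrays. Rn7sk, which holds the elongation factor P-TEFb inactive, read 4.12, 3.94, 4.02 and 3.38 in GFP-positive cells and 5.37, 4.96, 5.17 and 5.54 in GFP-negative cells. The populations did not overlap, at a difference of -1.39 (SE 0.23), but the adjusted p was 0.675 (limma). Rmrp, the RNA of RNase MRP, differed by -1.45 (SE 0.28). The lowest histone difference, -0.38 in H2bc18, was nearer to 0 than the values of these 2 RNAs, and the gap between them was not tested. Markers of other cells also had other levels in the 2 populations. The 12 pericyte markers summed to 36.0 to 62.2 in GFP-positive and 57.0 to 95.5 in GFP-negative cells. All 12 were detected on the GFP-negative arrays and 2 to 12 on the GFP-positive arrays. The 7 endothelial markers summed to 36.8 in GFP-positive cells of tumour 566 and to 2.05 to 9.36 on the other arrays. The 10 macrophage markers summed to 5.78 to 10.9 in GFP-positive and 8.96 to 14.7 in GFP-negative cells, with 2 to 10 and 6 to 10 of them detected; in tumour 566 the sum was 10.9 in GFP-positive against 8.96 in GFP-negative cells. Their part in the histone values was not tested.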

How the data were processed

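The authors deposited linear spot intensity from 1 Cy3 array per sample. The scanner software was Agilent Feature Extraction 10.7.3.1, per the submitters' processing notes and the file headers. The deposited series-wide table held the same intensity in all 62976 spots. Control spots and spots flagged as outliers were left out and the spots of a probe averaged. Accessions were matched to RefSeq symbols (GRCm38.p6, for names), which found the 44 genes; older gene names were not in the files used here. From log2 intensity, the 75th percentile of each array's 59305 gene spots was subtracted. A probe entered if all 4 arrays of one population or of both detected it. The brightest probe, by mean level, stood for its gene, which left 20265 genes.

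Two-sided tests used limma (version 3.58.1, R version 4.3.3): a comparison of populations with no block, and an F-test of the tumour number with the population as covariate, with Benjamini-Hochberg adjustment over all genes and a threshold of 0.05. The fits were tested on simulated data. The comparison of populations with no block was checked there only for its mean fitted difference, not for missed or false calls. The numbers pair the arrays: after subtracting population means, arrays of 1 number correlated at 0.573, 0.695, 0.642 and 0.741, over genes, and with another number by at most 0.221. The members and lists were chosen with earlier results of these data known. Genes named are, per histone type, the 3 with the smallest p between populations and the 2 with the largest F, 2 genes per companion list and a set of controls; others are marked as chosen after their values were seen, or belong to a pair that shares a promoter or to a count of 4 or fewer. The alternatives included scaling to the median or by quantiles, normexp (offset 50) on the median spot and background intensity (the mean was not used here), other percentiles and filters, a common floor, other handling of probes, other variance models, the tumour as a block, and each array and tumour left out. The number of arrays limits the precision.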

Additional observations from a re-analysis of the deposited data

Results flagged for a closer look

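In a group of 4 arrays, a value was singled out where its gap to the nearest other array, over the range of the group, passed Dixon's 95% critical value of 0.829. This was so in 9 of 92 groups. Chance gives about 1 in 20 where groups are independent and not selected; these genes were chosen in part by their F or p, and histone probes may read the same copies, so the 9 of 92 cannot be set against that share. Of the 9, 6 were the GFP-negative array of tumour 573. There H1f3 read 2.01 (others 0.59 to 0.80), H2ac13 4.12 (others 2.75 to 2.87), H3c13 4.37 (others 3.18 to 3.30), H3c3 5.71 (others 4.47 to 4.61) and H4c9 1.16 (others 0.03 to 0.13), all higher than the other GFP-negative arrays. Ipo4, an importin that carries histones H3 and H4, read 2.65 there, below the 3.88 to 4.03 of the others. On the GFP-positive array of tumour 573, H2az1, a replacement histone, read 7.97 (others 7.71 to 7.76). Casp8ap2, a component of the histone locus body, read -0.74 in GFP-positive cells of tumour 566 (others -0.43 to -0.38). Rmrp read 2.003 in GFP-negative cells of tumour 631 (others 0.93 to 1.05).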

How the results depend on the processing

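No gene passed limma's test between populations in the fit as reported or in any of the 35 alternatives, of which 29 were planned and the others were chosen after seeing the data. The median histone difference ran from -0.15 to 0.24, and 23 of 46 named genes turned sign in at least 1 alternative. The number of histone genes lower in GFP-positive cells was 15, and 17 after quantile normalization, 28 after median scaling and 30 after normexp. In a replicate block, which uses the pairing, the median difference stayed at 0.01, with 1113 of 20265 genes at an unadjusted p under 0.05 with a fixed block and 1005 with a random one, against 161; the smallest adjusted p over all genes was 0.459 and 0.0532, and no other call changed.

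The count of histone genes called between tumours, 15, was 4 after median scaling, beside 39.6% of all genes. It was 9 with the percentile over averaged probes, beside 28.2%, and 28 with it over probes detected on all arrays, beside 29.9%. With no filter it was 0, beside 0%, and with a filter of 3 of 4 arrays 9, beside 22.0%. The count was 3 with a common floor, beside 7.41%, and 25 at an adjusted p under 0.1, beside 44.2%. It was 9, 3 and 8 without tumours 567, 573 and 631, beside 13.8%, 20.1% and 17.6% of all genes. Leaving out 1 array gave 1 to 10. Over all genes the count, 5834, was 2463 after quantile normalization, 0 with no filter, 1501 with a common floor, 8950 at an adjusted p under 0.1, 2797 without tumour 567 and 3575 without tumour 631, and 1649 to 5186 without 1 array. The median histone spread of 1.06 was 0.68 after median scaling and 0.41 without tumour 573. Apart from the effect of fewer arrays, the cause was not tested. Signal over background limits H2ac21, H2bc6, H2bc21, H4c8 and Npat, which were not detected in GFP-positive cells of tumour 573. Of the genes with older histone names that the rule does not reach, 3 were tested and none passed between populations.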
